A study of Mus musculus with 8 samples.

Results

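The 50 genes described here carry cells from G1 into S phase and copy their DNA, and were measured by RNA sequencing in mouse acute myeloid leukaemia cells in which Klf4 was switched on. They were chosen by name and sorted by role into 15 genes of origin licensing and the helicase, 15 of the polymerases, clamp and ligase, 5 of nucleotide supply, 5 for cyclin E and E2F, 3 of chromatin assembly and histone mRNA, 4 of fork protection and cohesion and 3 of excision and mismatch repair. Each symbol matched a single identifier among the 47069 gene rows of the count files, and all 50 passed the filter on low counts that left 14263 genes to test.

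All 8 libraries came from GFP-positive cells sorted from mice with leukaemia driven by the MLL-AF9 fusion, and all carried the doxycycline-inducible TetO-Klf4 transgene, the 0h libraries included. The tissue is given as bone marrow and the strain as C57BL/7. The groups were 0h, 6h, 12h and 24h, with 2 libraries each. What marks 0h is not spelled out in the labels, and no group that had doxycycline but lacked the transgene is part of the data used. Whether the 2 replicates of a time came from different mice is also unstated, and the spread behind every p-value may therefore be technical.

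Libraries held 20394546 to 26041347 counts in genes, so that 3 counts, the level that a count of 0 still allows, came to 0.115 to 0.147 CPM (counts scaled to the size of the library). Klf4 was at 2.71 and 4.42 CPM at 0h, with 152 and 151 at 6h, 115 and 111 at 12h, then 76.9 and 78.8 at 24h. The count files cannot separate transgenic from endogenous Klf4 RNA. The summed level of 12 myeloid leukaemia markers was 3519 to 3596 CPM at 24h and 3887 to 3915 CPM at 0h. Among markers of other cells, 3 of 7 B cell markers (Ms4a1 and Pax5 among them), 2 of 8 T and NK cell markers and Kdr of endothelium had no count. In every library 7 of 8 T and NK cell markers, 5 of 7 B cell markers and 5 of 7 erythroid markers stayed under 1 CPM. Summed erythroid markers were 254 to 271 CPM at 24h and 416 to 427 CPM at 0h, carried by the transferrin receptor gene Tfrc, which is not limited to that lineage. Summed markers of marrow stroma and endothelium, 6 of 8 of them under 1 CPM, were 181 to 191 CPM at 24h and 227 to 235 CPM at 0h, and those of megakaryocytes and platelets were 8.25 to 9.21 CPM at 24h and 13.4 CPM at 0h. Summed T and NK cell markers were 9.45 to 9.61 CPM at 24h and 6.53 to 7.04 CPM at 0h, and B cell markers were 8.59 to 8.84 CPM at 24h and 11.1 to 12.2 CPM at 0h. Reads that fell in no annotated feature were 9.04 to 9.27% at 24h and 5.25 to 5.70% at 0h. The part of these shifts in the results below was not tested.

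In G1, the origin recognition complex, Cdc6 and Cdt1 load the MCM helicase onto DNA. Cyclin E with its kinase, and E2F factors freed from the retinoblastoma protein, carry the cell into S phase, when Cdc45 and the GINS complex complete the helicase and the polymerases follow on the clamp Pcna. Most of these genes are textbook E2F targets, and E2F1 and E2F2 are activators whereas E2F8 is a repressor. KLF4 is known in several tissues for holding cells back from dividing.

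Start regions are shown for 5 genes described below, because they carry the letters an E2F factor binds. The windows run from 250 bases before to 50 bases after the RefSeq start of transcription (GRCm38.p6), 5′ to 3′ on the gene's strand, with E2F words in capitals. They lie at chr4:136172024-136172323 (+) for E2f2, chr8:122567765-122568064 (+) for Cdt1, chr1:20820263-20820562 (-) for Mcm3, chr8:75109259-75109558 (+) for Mcm5 and chr5:151651159-151651458 (-) for Rfc3. E2f2 has another RefSeq start region, not shown, that holds no E2F word. E2f2 and Cdt1 were higher at 24h than at 0h and the other genes shown were lower.
E2f2: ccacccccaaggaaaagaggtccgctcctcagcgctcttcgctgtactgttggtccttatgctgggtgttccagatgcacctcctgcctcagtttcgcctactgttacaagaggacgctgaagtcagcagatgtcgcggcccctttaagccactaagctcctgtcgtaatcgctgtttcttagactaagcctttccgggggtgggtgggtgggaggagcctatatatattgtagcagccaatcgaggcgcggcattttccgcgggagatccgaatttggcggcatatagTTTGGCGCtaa
Cdt1: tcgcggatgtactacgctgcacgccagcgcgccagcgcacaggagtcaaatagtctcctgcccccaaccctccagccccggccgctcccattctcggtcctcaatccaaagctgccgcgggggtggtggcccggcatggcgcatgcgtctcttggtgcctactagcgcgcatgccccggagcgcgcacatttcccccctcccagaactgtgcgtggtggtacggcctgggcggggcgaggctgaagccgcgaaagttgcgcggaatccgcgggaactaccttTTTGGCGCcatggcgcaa
Mcm3: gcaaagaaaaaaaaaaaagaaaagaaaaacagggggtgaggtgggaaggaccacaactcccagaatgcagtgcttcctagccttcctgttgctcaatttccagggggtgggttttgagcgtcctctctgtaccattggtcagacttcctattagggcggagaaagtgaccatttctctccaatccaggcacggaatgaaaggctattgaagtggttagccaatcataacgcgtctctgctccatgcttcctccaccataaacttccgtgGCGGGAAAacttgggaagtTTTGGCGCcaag
Mcm5: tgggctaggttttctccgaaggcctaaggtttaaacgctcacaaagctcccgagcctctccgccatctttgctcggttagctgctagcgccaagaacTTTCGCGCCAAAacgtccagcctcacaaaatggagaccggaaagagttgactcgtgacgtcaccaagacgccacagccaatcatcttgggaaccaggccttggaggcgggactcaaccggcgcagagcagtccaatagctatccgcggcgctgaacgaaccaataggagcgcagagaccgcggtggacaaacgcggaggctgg
Rfc3: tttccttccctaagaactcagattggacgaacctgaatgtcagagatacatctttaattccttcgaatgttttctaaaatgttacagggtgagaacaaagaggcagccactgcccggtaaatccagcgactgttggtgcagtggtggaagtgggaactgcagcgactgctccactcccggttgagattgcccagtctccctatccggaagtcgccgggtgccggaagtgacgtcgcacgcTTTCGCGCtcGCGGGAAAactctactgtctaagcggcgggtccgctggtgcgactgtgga

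The words searched were TTTCCCGC, TTTGGCGC, TTTCGCGC and TTTGCCGC on both strands. In Mcm5, TTTCGCGC and the reverse complement of TTTGGCGC share letters, so the capitals form 1 run. RefSeq windows were found for 39 of the 50 genes, and 17 of these (43.6%) held an E2F word in any of their windows, against 704 of 27025 genes (2.60%) in the whole table. By their call at 24h against 0h, words were present in 3 of 6 genes that were higher, 8 of 17 that were lower and 6 of 16 that were not called, so the word was found in each class. The GC box GGGCGG was in 76.9% of the 39 genes and 38.2% of all genes. CCAAT was in 53.8% and 41.1%, and the KLF words CCACACCC or CCACGCCC in 17.9% and 9.75%. A match is a description of letters and not a measured binding site.

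At 0h the list spanned a wide range of levels per length. Pcna was highest at 185 ± 1.8 CPM per kb of exon (SD, n = 2), followed by Mcm3 at 143 ± 0.79, Mcm6 at 113 ± 0.23, Mcm5 at 102 ± 2.6 and Rrm2 at 93 ± 3.2. Mcm5 and Rrm2 are neighbours whose gap was larger than the spread of either. Fen1, the flap endonuclease, was lowest at 0.742 CPM per kb. Its longest exonic overlap with a gene on the opposite strand is 1909 bases, and the strand setting of the counting is not stated, so its level is uncertain. E2f2 stood 39th of 50 by level per kb at 0h and 16th at 24h.

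At 24h most of the genes that passed the test were lower, by small amounts, while E2f2 was 2.54-fold higher. Against 0h, 23 of 50 genes were lower and 7 higher at 24h in edgeR's quasi-likelihood test at an adjusted p under 0.05. Over all genes tested, 24.8% were called lower and 26.1% higher. The median log2 fold change was -0.11 over the 50 genes and 0.02 over all genes tested. In 31 genes both 24h libraries lay below both 0h libraries and in 14 both lay above, against 36.0% and 38.9% of all genes. When libraries were scaled by their totals alone, the calls were 17 lower and 11 higher, and all genes were called higher 4494 times and lower 2666 times, against 3721 and 3536 with the main scaling. RNA was taken from bulk cells, so fewer cells in S phase and less of these RNAs in each cell cannot be told apart.

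**Figure D1:**
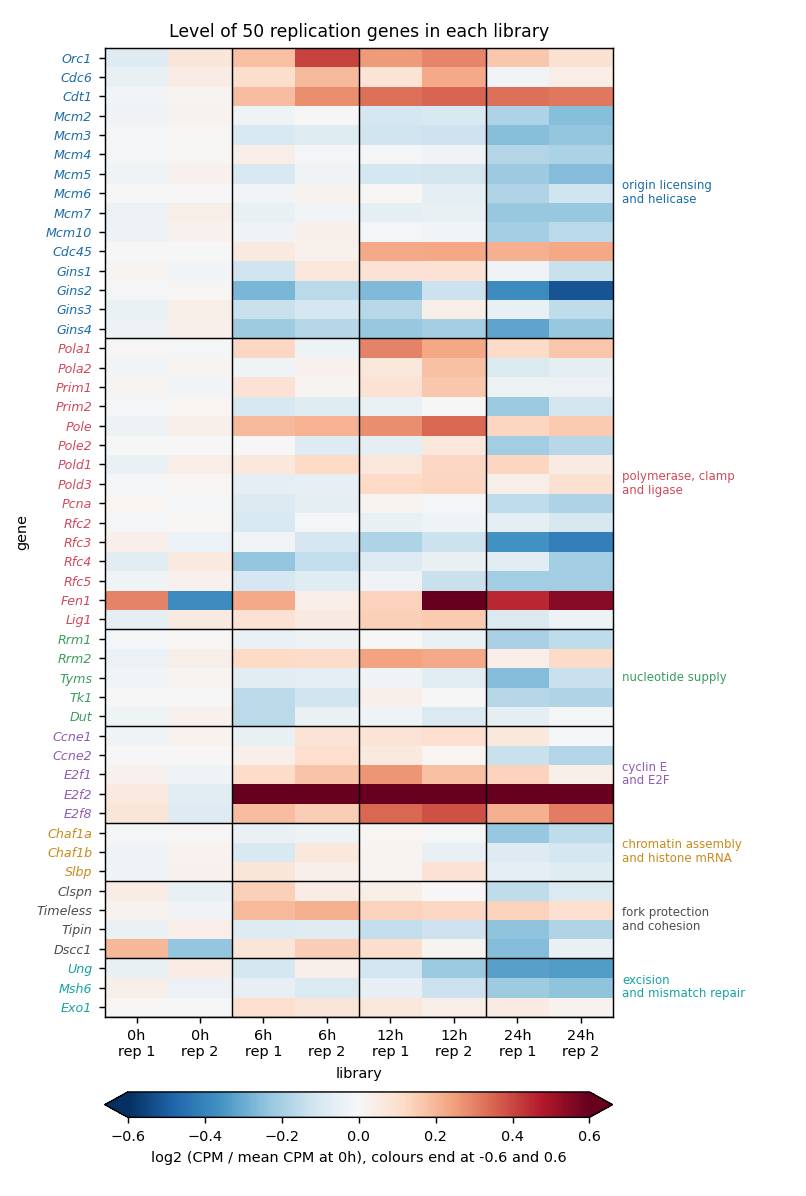
Level of each of the 50 genes (rows, coloured by role) in each of the 8 libraries (columns), as the log2 ratio of its CPM to the gene's mean CPM at 0h. Colours end at -0.6 and 0.6, so E2f2 is at the end of the scale from 6h onwards. The MCM genes turn blue at 24h, and Cdt1 and Cdc45 stay red.

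Over the 4 time points 36 of the 50 genes differed in edgeR's test, beside 52.8% of all genes. Counts of calls by step follow, and those at 6h and 12h against 0h were near the shares over all genes. From 0h to 6h, 7 genes were higher and 3 lower, beside 9.74% and 8.58% of all genes. At 12h against 0h, 13 were higher and 8 lower, beside 22.1% and 21.6%. Both 6h libraries were above both 0h libraries in 16 genes and below them in 18 (27.3% and 29.0% of all genes), and for 12h these were 20 and 12 genes (35.9% and 35.3%). Scaling by library totals gave 9 higher and 0 lower at 6h, beside 1722 and 741 of all genes. At 12h it gave 18 higher and 0 lower, beside 3887 and 2060 of all genes. A GC and length correction centring the mean gene gave 6 higher and 8 lower at 6h, beside 1119 and 1920 of all genes. From 6h to 12h, 7 genes were higher (Cdc45, Pola1, Pold3, Rrm2, Tk1, E2f2 and E2f8) and 0 lower, beside 10.9% and 9.79% of all genes. Both 12h libraries were above both 6h libraries in 19 genes and below in 9 (29.5% and 28.8% of all genes). DESeq2 also gave 0 lower genes in that step, beside 778 of all genes. It did not call Rrm2 (0.12, adjusted p = 0.056) or Tk1 (0.15, adjusted p = 0.067). In edgeR's test 2 of the 50 were lower at an unadjusted p under 0.05, a threshold at which all genes were not counted. With library totals there were 11 higher and 0 lower, beside 1939 and 894 of all genes. The GC and length correction centring the mean gene gave 9 higher and 2 lower, beside 1515 and 1792 of all genes.

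From 12h to 24h the direction was common to most of the list. In edgeR's test 16 genes were lower and 0 higher, beside 3.04% and 3.41% of all genes. At an unadjusted p under 0.05 there were 33 lower and 0 higher, a threshold at which all genes were not counted. DESeq2 called 14 lower and 0 higher, beside 241 and 209 of the 14263 genes tested. In 40 of the 50 genes both 24h libraries lay below both 12h libraries and in 0 both lay above, whereas 23.3% of all genes were all lower and 25.9% all higher. The remaining 10 genes overlapped (Cdt1, Cdc45, Gins3, Gins4, Pold1, Rfc4, Fen1, Dut, Timeless and Exo1). The median log2 fold change was -0.14, against 0.01 over all genes tested. When a 12h or 24h library was left out, lower calls over all genes tested became fewer, and without a 6h library they became more. Among the 50 genes too the count of calls rested on few libraries. It was 5 without 12h replicate 1, 2 without 12h replicate 2, 8 without 24h replicate 1, 7 without 24h replicate 2, 26 without 6h replicate 1 and 25 without 6h replicate 2. Lig1 alone among the 16 kept its call in every fit that left out 1 library.

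**Figure D2:**
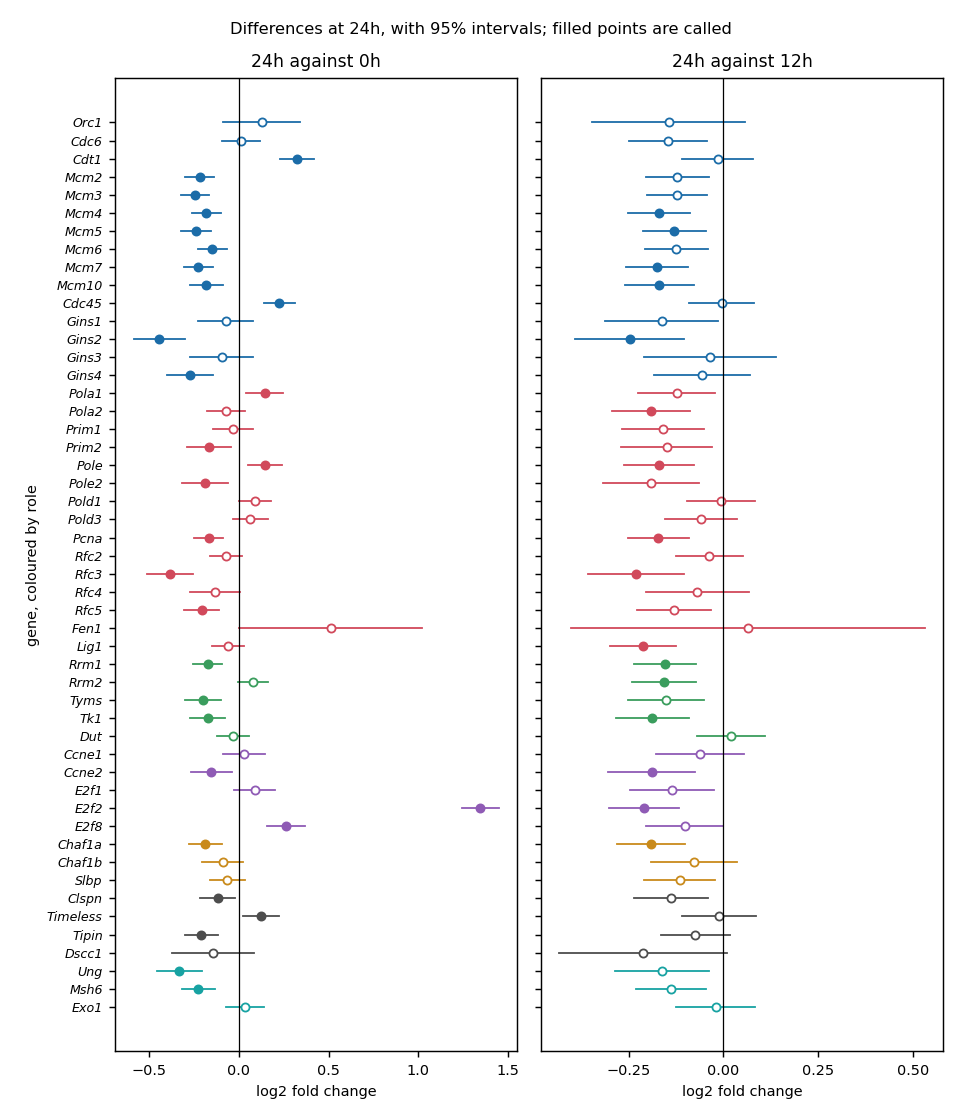
Log2 fold change of each gene with its 95% interval, at 24h against 0h (left) and 24h against 12h (right), coloured by role, with genes called by edgeR's test as filled points. At 24h against 0h the MCM genes lie left of the line, and E2f2 lies apart at 1.35. At 24h against 12h the points lie mostly left of the line with none called to its right. The horizontal scales differ.

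The steps from 0h to 6h and from 12h to 24h share no library. Of the 50 genes, 24 had a log2 fold change below 0 in both steps, 24 were above 0 in the first and below it in the second, 1 was above in both and 1 was below and then above. Among all genes tested, 49.1% were above 0 in the first step and 51.7% in the second. Gins2 and Tk1 were called lower in both steps, and E2f2 and Pole higher in the first and lower in the second. The 6h calls of Gins2 and Tk1 were lost with DESeq2 and with library totals. That of Pole was lost without 0h replicate 1 and under the GC and length correction centring the mean gene (0.11). The call of Gins2 at 24h against 12h was lost with DESeq2 (adjusted p = 0.1).

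Among the regulators, E2f2, an activating E2F factor, changed most. The gene lies on chromosome 4 at 136172394 to 136196057 on the plus strand (GENCODE M21, mm10) and overlaps no other gene's exons. It was at 56.5 and 51.9 CPM at 0h, with 119 and 123 at 6h, 156 and 162 at 12h, then 141 and 134 at 24h. No library after 0h came near the 0h levels. Its log2 fold change against 0h was 1.16 ± 0.05 (SE) at 6h (adjusted p = 1e-19), 1.55 ± 0.05 at 12h (adjusted p = 3.5e-24) and 1.35 ± 0.05 at 24h (adjusted p = 1.7e-22). From 12h to 24h it fell by 0.21 (adjusted p = 0.0025), with both 24h libraries below both 12h libraries. In a test against a fold of 1.5, E2f2 alone of the 50 genes passed against 0h, and did so at each later time. Of all 14263 genes, 212, 579 and 843 passed as higher at 6h, 12h and 24h, and 1, 21 and 110 as lower.

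E2f8, the repressor of the family, was at 88.9 and 80.0 CPM at 0h, with 96 and 93.5 at 6h, 107 and 110 at 12h, then 98.1 and 104 at 24h. Every later library was above both 0h libraries, with a log2 fold change of 0.36 ± 0.05 at 12h (adjusted p = 3.6e-07) and 0.26 ± 0.05 at 24h (adjusted p = 5.5e-05). E2f1 was at 57.0 and 54.8 CPM at 0h, with 60.3 and 62.9 at 6h, 67.1 and 63.4 at 12h, then 61.5 and 57.2 at 24h. It was higher at 12h by 0.22 ± 0.06 (adjusted p = 0.0014) and was not called at 24h (0.09, adjusted p = 0.2). The 12h call was lost under both GC and length corrections (0.12 with library levels kept and 0.084 with the mean gene centred).

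The cyclin E genes, whose products activate the kinase Cdk2 at the G1-S boundary, stayed near their starting level to 12h. Ccne1 was at 49.5 and 50.9 CPM at 0h, with 48.7 and 53.1 at 6h, 53.2 and 53.8 at 12h, then 52.4 and 49.9 at 24h. Its groups overlapped at 24h and 0h, with a log2 fold change of 0.03 and a 95% interval of -0.09 to 0.15. Ccne2 was at 51.5 and 51.7 CPM at 0h, with 52.7 and 55.2 at 6h, 53.7 and 52.1 at 12h, then 47.0 and 45.7 at 24h. Both 24h libraries were below all others, and the gene was lower at 24h than at 0h (-0.15, adjusted p = 0.024) and than at 12h (-0.19, adjusted p = 0.034). The call against 0h was lost with DESeq2, with library totals, with the stricter filter, under both GC and length corrections (-0.038 and -0.078), and when either 0h library or 24h replicate 2 was left out. The Ccne2 call against 12h was lost with DESeq2 (adjusted p = 0.11) and when any 12h or 24h library was left out. Ccne2 shares 609 exonic bases with Ints8 on the other strand.

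**Figure D3:**
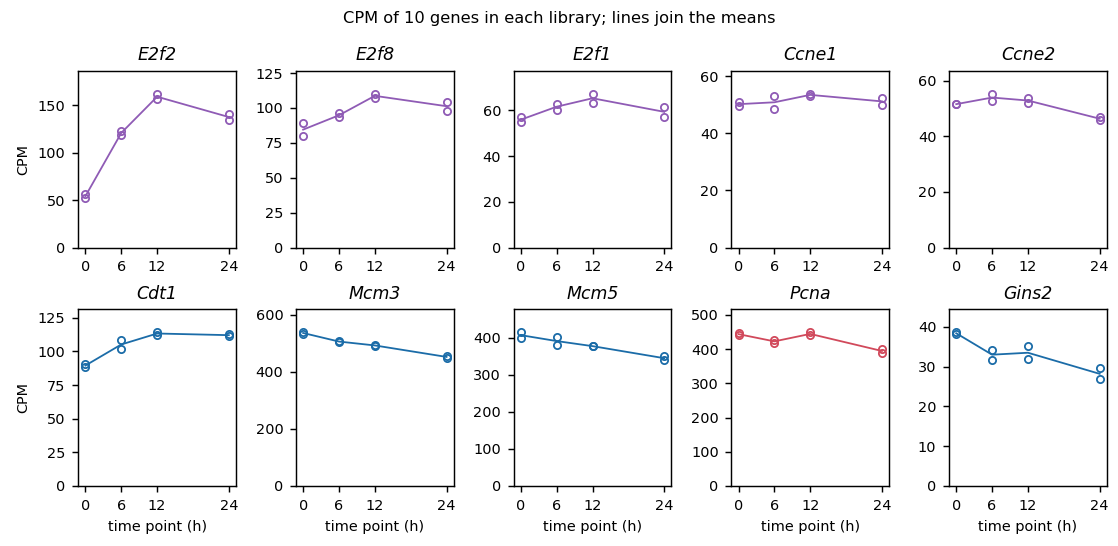
CPM of 10 genes in each library (circles, 2 per time point) against the labelled hour, with lines through the means and axes starting at 0. The E2F and cyclin E genes are in the top row, where E2f2 is at 51.9 to 56.5 CPM at 0h and 134 to 162 CPM at 12h and 24h. Mcm3, Mcm5, Pcna and Gins2 in the bottom row are lowest at 24h, and Cdt1 is not.

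Among genes of origin licensing and the helicase, 9 of 15 were lower and 2 higher at 24h than at 0h, beside 24.8% and 26.1% of all genes. The licensing factor Cdt1 was among the higher ones. Cdt1 was at 88.5 and 90.5 CPM at 0h, with 102 and 108 at 6h, 112 and 114 at 12h, then 113 and 111 at 24h. Its libraries separated from 0h at each later time, by 0.23 ± 0.05 at 6h (adjusted p = 0.00045), 0.34 ± 0.05 at 12h (adjusted p = 3.3e-07) and 0.32 ± 0.05 at 24h (adjusted p = 4.6e-07). Cdc45, which joins the helicase when an origin fires, was at 129 and 130 CPM at 0h, with 135 and 132 at 6h, 152 and 152 at 12h, then 150 and 152 at 24h. It was level up to 6h and higher from 12h, by 0.23 ± 0.04 at 12h (adjusted p = 4.2e-05) and 0.22 ± 0.04 at 24h (adjusted p = 3.9e-05).

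The helicase core fell as a set of small, similar differences. The summed level of Mcm2 to Mcm7 was 2165 and 2161 CPM in the 24h libraries, against 2477 and 2527 CPM in the 0h libraries, or 86.5%. All 6 genes were lower at 24h in edgeR's test, with log2 fold changes between -0.25 and -0.15, and with library totals 5 of 6 were called, Mcm6 having an adjusted p of 0.069. A correction for GC content and length that kept each library's level also called 5, Mcm4 having an adjusted p of 0.065. Against a fold of 1.5, 0 passed, and of all 14263 genes 110 passed as lower at 24h.

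Mcm3 was at 533 and 537 CPM at 0h, with 502 and 509 at 6h, 492 and 491 at 12h, then 448 and 455 at 24h. Its libraries at each time lay below those of the time before, and it was lower at 24h than at 0h, with a log2 fold change of -0.25 ± 0.04 (adjusted p = 2.4e-06). Mcm5 was at 399 and 414 CPM at 0h, with 381 and 400 at 6h, 378 and 376 at 12h, then 350 and 339 at 24h. It was lower at 24h than at 0h (-0.24 ± 0.04, adjusted p = 7.4e-06) and just passed the threshold at 24h against 12h (-0.13, adjusted p = 0.049). Mcm10, which helps to activate the loaded helicase, was at 111 and 114 CPM at 24h and 125 and 130 CPM at 0h, and was lower, with a log2 fold change of -0.18 ± 0.05 (adjusted p = 0.00096).

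Of the 4 subunits of the GINS complex, the other partner of the helicase, Gins2 and Gins4 were called lower at 24h than at 0h, and in all 4 both 24h libraries were below both 0h libraries. The subunits were not tested against each other. Gins2 was at 38.2 and 38.6 CPM at 0h, with 31.7 and 34.3 at 6h, 31.9 and 35.1 at 12h, then 29.6 and 26.8 at 24h. Every later library was below both 0h libraries, and its log2 fold change at 24h against 0h of -0.44 ± 0.07 (adjusted p = 2e-06) was the lowest of the 50 genes. Its exons overlap Gse1 along 2758 bases. Gins4 was at 35.4 and 37.8 CPM at 24h and 43.2 and 45.1 CPM at 0h, without overlap, and was lower, with a log2 fold change of -0.27 ± 0.06 (adjusted p = 0.00038), a call lost under both GC and length corrections. Gins1 and Gins3 were not called at 24h against 0h (-0.07 and -0.10). The GC and length correction that kept library levels called Gins1 higher (0.1726, adjusted p = 0.043).

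The loaders Orc1 and Cdc6 were called higher at 6h and 12h and were not called at 24h against 0h or against 12h. Orc1, a subunit of the origin recognition complex, was at 10.7 and 11.9 CPM at 0h, with 12.8 and 14.9 at 6h, 13.5 and 13.8 at 12h, then 12.6 and 12.0 at 24h, and was called at 6h (0.30, adjusted p = 0.04) and 12h (0.27, adjusted p = 0.034). Both 24h libraries of Orc1 lay above both 0h libraries. Cdc6 was at 95.9 and 102 CPM at 0h, with 106 and 113 at 6h, 105 and 116 at 12h, then 98 and 102 at 24h. It was called at 6h (0.15, adjusted p = 0.037) and 12h (0.16, adjusted p = 0.013), and its 24h libraries overlapped those at 0h. These calls of Orc1 and Cdc6 were lost in 2 or 3 of the 8 fits that left out 1 library, among them each fit without 0h replicate 1. DESeq2 called neither gene at 6h and did not call Orc1 at 12h.

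Among the polymerases, clamp and ligase, 5 of 15 genes were lower and 2 higher at 24h than at 0h (33.3% and 13.3%, beside 24.8% and 26.1% of all genes). At 24h against 12h, 5 were lower, beside 3.04% of all genes. Pole, the catalytic subunit of leading-strand polymerase epsilon, was at 94.0 and 98.1 CPM at 0h, with 110 and 111 at 6h, 117 and 122 at 12h, then 105 and 107 at 24h. All later libraries were above those at 0h, and the log2 fold change was 0.31 ± 0.05 at 12h (adjusted p = 1.1e-06) and 0.14 ± 0.05 at 24h (adjusted p = 0.011). The 24h call was lost without 0h replicate 1 or 24h replicate 2 and under both GC and length corrections, and the one that centres the mean gene turned its sign (-0.026). Its partner subunit Pole2 was at 35.7 and 36.6 CPM at 24h and 41.2 and 41.2 CPM at 0h (-0.19, adjusted p = 0.013), a call lost when either 0h library or 24h replicate 1 was left out, with library totals and under both GC and length corrections.

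Pola1, the catalytic subunit of the polymerase that starts each strand, was at 81.2 and 80.5 CPM at 0h, with 88.0 and 79.2 at 6h, 99.4 and 95 at 12h, then 87.6 and 90.8 at 24h. Its highest libraries were those at 12h, where it was 0.27 ± 0.05 above 0h (adjusted p = 6.9e-05). The difference at 24h (0.14, adjusted p = 0.021) lost its call with DESeq2, under the GC and length correction centring the mean gene (0.068), and when either 0h library or 24h replicate 2 was left out. The summed level of Pola1, Pola2, Prim1 and Prim2 at 24h was 99.3% of that at 0h.

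The sliding clamp Pcna was at 447 and 441 CPM at 0h, with 419 and 426 at 6h, 449 and 440 at 12h, then 399 and 390 at 24h. Both 24h libraries were below all others, and the gene was lower, with log2 fold changes of -0.17 ± 0.04 against 0h (adjusted p = 0.00053) and -0.17 ± 0.04 against 12h (adjusted p = 0.0047). Both corrections for GC content and length ended the 24h call against 0h, the one that kept library levels turning its sign (0.0376) and the one centring the mean gene giving -0.0027. Processed copies of the gene, Pcna-ps1 and Pcna-ps2, could share its reads.

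Of the clamp loader, Rfc3 and Rfc5 were called lower at 24h against 0h and Rfc2 and Rfc4 were not. Rfc3 was at 45.2 and 43.2 CPM at 0h, with 43.8 and 41.3 at 6h, 38.9 and 40.5 at 12h, then 34.3 and 33.3 at 24h. Its 24h libraries lay below all others, and it was lower than at 0h, with a log2 fold change of -0.39 ± 0.06 (adjusted p = 3.2e-06). DNA ligase I, which seals the nicks of the lagging strand, is encoded by Lig1, at 183 and 197 CPM at 0h, with 201 and 197 at 6h, 209 and 212 at 12h, then 179 and 185 at 24h. It was called higher at 12h (0.15, adjusted p = 0.0047), though not without 0h replicate 1 or 12h replicate 2 nor under the GC and length correction centring the mean gene (0.073), and the difference of 24h from 12h was -0.21 ± 0.04 (adjusted p = 0.001). Its 24h libraries overlapped those at 0h.

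In nucleotide supply, 3 of 5 genes were lower at 24h than at 0h, beside 24.8% of all genes. At 24h against 12h, 3 were lower, beside 3.04% of all genes. The subunits of ribonucleotide reductase, which makes deoxyribonucleotides, were not called in all the same comparisons. Both were called lower at 24h against 12h (-0.15 for Rrm1 and -0.16 for Rrm2). Rrm1, the large subunit, was at 476 and 482 CPM at 0h, with 466 and 469 at 6h, 479 and 466 at 12h, then 418 and 432 at 24h, and was lower at 24h than at 0h, with a log2 fold change of -0.17 ± 0.04 (adjusted p = 0.00041). Rrm2, the small subunit, was at 251 and 264 CPM at 0h, with 280 and 278 at 6h, 305 and 301 at 12h, then 265 and 279 at 24h. It was higher at 12h than at 0h by 0.23 ± 0.04 (adjusted p = 1.8e-05) and lower at 24h than at 12h, with a log2 fold change of -0.16 ± 0.04 (adjusted p = 0.014), and was not called at 24h against 0h. Whether the subunits differed from each other was not tested.

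The thymidylate genes fell at 24h. Tyms, encoding thymidylate synthase, was at 83.0 and 90.6 CPM at 24h and 98.4 and 101 CPM at 0h (-0.20 ± 0.05, adjusted p = 0.00099). Tk1, thymidine kinase of the salvage pathway, was at 78.3 and 77.9 CPM at 24h and 88.4 and 87.9 CPM at 0h (-0.17 ± 0.05, adjusted p = 0.0028). The Tk1 call was lost with library totals, where its adjusted p was 0.054. Dut, whose product removes dUTP, was at 198 and 206 CPM at 24h and 203 and 211 CPM at 0h, with overlapping libraries. Both GC and length corrections called Dut higher at 24h (0.1303 and 0.0901, adjusted p = 0.0036 and 0.041).

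Of the chromatin assembly genes, Chaf1a, the large subunit of the histone chaperone CAF-1, was called at 24h against 0h, and Chaf1b and the histone mRNA binding protein gene Slbp were not. Chaf1a was at 127 and 129 CPM at 0h, with 125 and 125 at 6h, 129 and 127 at 12h, then 109 and 115 at 24h. Its 24h libraries were below all others, with log2 fold changes of -0.19 ± 0.04 against 0h (adjusted p = 0.00063) and -0.19 ± 0.04 against 12h (adjusted p = 0.0051). Its exons overlap Ubxn6 along 4648 bases. Slbp was at 102 and 101 CPM at 24h and 104 and 108 CPM at 0h (-0.06 ± 0.05, adjusted p = 0.26), and Chaf1b was at 57.0 and 56.0 CPM at 24h and 59.4 and 61.1 CPM at 0h (-0.09 ± 0.06, adjusted p = 0.18).

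The fork protection partners Timeless and Tipin, whose products bind each other, were called in opposite directions at 24h against 0h, though neither call held under the GC and length corrections. Timeless was at 76.7 and 74.4 CPM at 0h, with 86.5 and 87.7 at 6h, 83.3 and 82.3 at 12h, then 83.3 and 81.0 at 24h. It was higher at 6h by 0.21 ± 0.05 (adjusted p = 0.0025) and at 24h by 0.12 ± 0.05 (adjusted p = 0.04). The 6h call was lost without 0h replicate 2 (0.18) and under the GC and length correction centring the mean gene (0.1). The 24h call held in 1 of 8 fits that left out 1 library, the one without 6h replicate 2, and was lost with DESeq2, and under both GC and length corrections its sign turned (-0.0100 and -0.0503). Tipin was at 131 and 138 CPM at 0h, with 128 and 128 at 6h, 121 and 123 at 12h, then 114 and 119 at 24h, lower at 24h than at 0h, with a log2 fold change of -0.21 ± 0.05 (adjusted p = 0.00018). The correction that kept library levels gave 0.0342. The checkpoint adaptor gene Clspn was at 99.6 and 104 CPM at 24h and 114 and 107 CPM at 0h (-0.12, adjusted p = 0.04), a call lost with DESeq2, with library totals, with the stricter filter and without 0h replicate 1 or 24h replicate 1. Dscc1, of the complex that loads the clamp for cohesion, was at 11.3 and 13.1 CPM at 24h and 15.5 and 11.5 CPM at 0h and was not called (-0.14 ± 0.11, adjusted p = 0.29).

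Of the repair genes, Ung, the uracil DNA glycosylase, was at 52.0 and 55.3 CPM at 0h, with 49.8 and 54.8 at 6h, 49.5 and 45.9 at 12h, then 42.7 and 42.5 at 24h. Its 24h libraries were below all others, at -0.33 ± 0.06 against 0h (adjusted p = 2.4e-05). Msh6, of the mismatch recognition complex, was at 119 and 117 CPM at 24h and 142 and 135 CPM at 0h (-0.23 ± 0.05, adjusted p = 7.3e-05). The nuclease gene Exo1 was at 62.2 and 61.0 CPM at 24h and 60.4 and 59.9 CPM at 0h and was not called (0.03, adjusted p = 0.61).

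Levels were also summed within each role. At 24h the summed CPM of all 50 genes was 93.6% of that at 0h. It was 89.4% for origin licensing and the helicase, 95.3% for the polymerases, clamp and ligase, 94.0% for nucleotide supply, 91.9% for chromatin assembly, 93.5% for fork protection and 88.2% for excision and mismatch repair. Cyclin E and E2F genes came to 134%, of which the cyclin E genes alone came to 95.8% and the E2F genes to 153%.

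**Figure D4:**
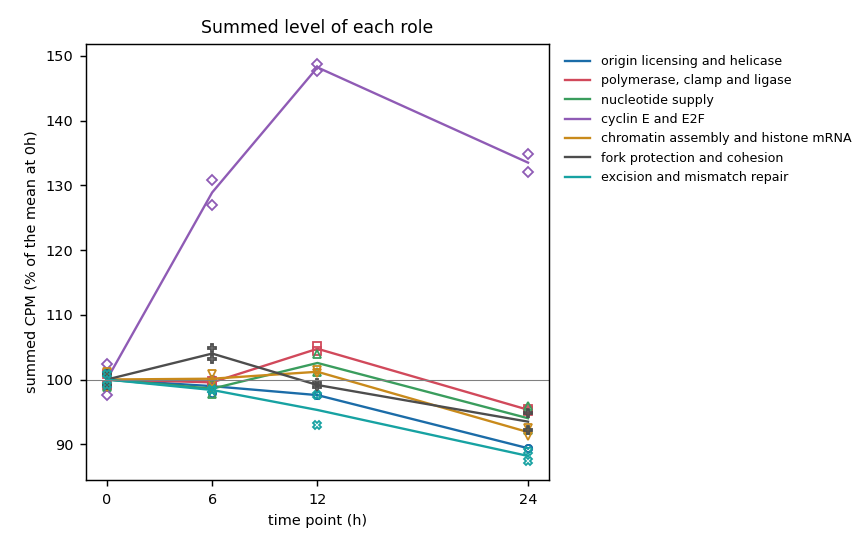
Summed CPM of each role in each library (symbols), as a percentage of the role's mean at 0h, against the labelled hour, with lines through the means. The cyclin E and E2F line, carried by E2f2, is at 134% at 24h, and the other 6 roles are between 88.2% and 95.3%. The vertical axis does not start at 0.

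Other genes of the cycle, listed by function, were set beside the 50. Of 44 other replication genes, 9 were higher and 21 lower at 24h than at 0h (20.5% and 47.7%, beside 26.1% and 24.8% of all genes). At 24h against 12h, 0 were higher and 6 lower, beside 3.41% and 3.04% of all genes. Samhd1, which breaks down deoxyribonucleotides, was at 111 and 121 CPM at 24h and 61.8 and 61.0 CPM at 0h (0.91 ± 0.05, adjusted p = 4.1e-17). Pole3, an accessory subunit of polymerase epsilon, was at 56.4 and 59.4 CPM at 24h and 78.6 and 76.6 CPM at 0h (-0.42 ± 0.05, adjusted p = 3.5e-08). Mtbp and Recql4, whose products act in origin firing, were higher (0.58 and 0.49, adjusted p = 6.1e-10 and 1.1e-07).

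Of 24 G1-S control genes, 7 were higher and 6 lower at 24h than at 0h (29.2% and 25%), shares near those of all genes (26.1% and 24.8%). Ccnd3, a D-type cyclin, was at 335 and 327 CPM at 24h and 202 and 206 CPM at 0h (0.70 ± 0.04, adjusted p = 6.3e-16). Its kinase partner Cdk4 averaged 299 ± 8.6 CPM at 24h and 396 ± 5.0 CPM at 0h (SD, n = 2 each), without overlap (-0.41 ± 0.04, adjusted p = 2.9e-10). Rb1, the retinoblastoma protein gene, and Tfdp2, which encodes a DNA-binding partner of E2F factors, were higher (0.48 and 0.51, adjusted p = 2.6e-08 and 4.6e-08).

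Of 26 S phase checkpoint and recombination genes, 8 were higher and 3 lower at 24h than at 0h (30.8% and 11.5%), beside 26.1% and 24.8% of all genes. Brca2, a gene of homologous recombination, was at 57.2 and 59.9 CPM at 24h and 31.7 and 33.1 CPM at 0h (0.85 ± 0.06, adjusted p = 1.9e-14). Bard1, Fancd2 and Fanca were higher by 0.55, 0.38 and 0.31 (adjusted p = 1.1e-08, 4.8e-07 and 2e-06). Of 44 mitosis genes, 22 were higher and 5 lower (50% and 11.4%), with a median of 0.12, against -0.11 over the 50 replication genes. Cdc25b, a phosphatase that activates the mitotic kinase, was at 33.4 and 34.1 CPM at 24h and 20 and 20.5 CPM at 0h (0.74 ± 0.07, adjusted p = 2e-10). Anln, Espl1 and Cenpe were higher by 0.52, 0.45 and 0.45 (adjusted p = 1.4e-11, 3.5e-10 and 5e-10). The lists are unequal in size and the difference between them was not tested.

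**Figure D5:**
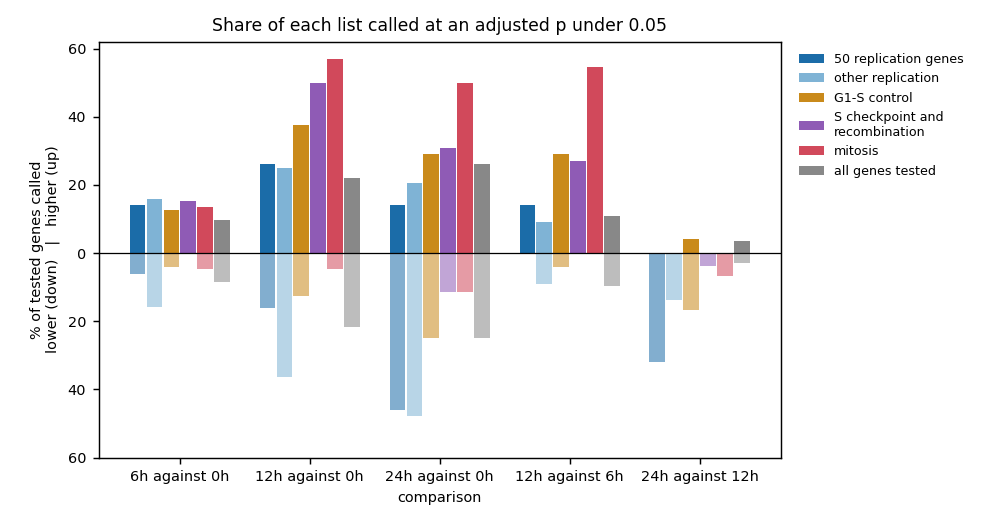
Percentage of the tested genes of each list called higher (up) or lower (down) in each comparison, with all genes tested in grey. At 24h against 12h the 50 replication genes have 0 called higher and 32% called lower, beside 3.41% and 3.04% of all genes.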

How the data were processed

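Total RNA of 8 libraries was extracted with a column kit and sequenced from Illumina TruSeq libraries, per the labels' protocols. The authors deposited raw HTSeq counts per gene (mm10). STAR, SAMtools 1.3 and HTSeq 2.0.3 are named in the submitters' processing notes, while strand setting and annotation release are not stated there. Of 47069 gene rows, 46574 matched GENCODE M21, and 5 summary rows were left out.

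Samples were grouped by labelled time point. Counts were filtered with filterByExpr, scaled by TMM and fitted over all 8 libraries with edgeR 4.0.16 in R 4.3.3 (glmQLFit and glmQLFTest, 4 residual degrees of freedom, biological coefficient of variation 3.10%). P-values were Benjamini-Hochberg adjusted over 14263 genes and called under 0.05. CPM are TMM-scaled, and SE is the log2 fold change divided by the square root of F. Intervals of fold changes come from the fit and include the spread between libraries, whereas the floors of 3 counts cover counting error only. The fit was tested on simulated data.

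The 50 genes and the lists were chosen with earlier results of these data known. Every one of them could be named; statistics were given for the 4 genes per role with the smallest time-course p, for Pcna, Mcm5 and the cyclin E genes, and for genes that differed from their group. The 4 genes with the smallest adjusted p at 24h were named from each other list. Alternatives were DESeq2 1.42.0, its size factors, library totals, other filters, a replicate block, fewer libraries, a fold of 1.5 and GC and length corrections.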

Additional observations from a re-analysis of the deposited data

How the results depend on the processing

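The direction of the decline held in every setting run: the median log2 fold change of the 50 genes stayed between -0.12 and -0.04 at 24h against 0h and between -0.16 and -0.13 at 24h against 12h. Counts of calls moved more, and counts over all genes tested are given in brackets. DESeq2 gave 4 higher and 0 lower at 6h (914 and 754) and 4 lower at 12h (2338). Library totals gave 0 lower at 6h (741) and at 12h (2060), 11 higher at 24h (4494) and 11 higher at 12h against 6h (1939). Without a filter 0 were lower at 6h (979 of 25359), and the stricter filter gave 5 lower at 12h (2714 of 10848). Fitting the 4 libraries compared alone gave 1 lower at 6h (910 of 13152) and 25 lower at 24h against 12h (636 of 13981). Against a fold of 1.5, 1 was higher at 6h, 12h and 24h against 0h (212, 579 and 843). In each of these comparisons 0 were lower (1, 21 and 110). In that test 0 were higher at 12h against 6h (84) and 0 lower at 24h against 12h (5). The GC and length correction that kept library levels gave 1 lower at 12h against 6h (1621) and 27 lower at 24h against 12h (584). The one centring the mean gene gave 8 lower at 6h (1920) and 2 lower at 12h against 6h (1792). At 24h against 12h it gave 30 lower (640). The cause was not tested.

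Leaving out each library gave 30 to 38 genes over the time course, 3 to 8 higher and 0 to 4 lower at 6h, 8 to 14 higher and 0 to 8 lower at 12h, 4 to 7 higher and 19 to 23 lower at 24h, 3 to 7 higher and 0 to 1 lower at 12h against 6h, and 0 to 0 higher and 2 to 26 lower at 24h against 12h. At 24h against 0h most calls held in every such fit, and fewer once the other settings, the fold test aside, were added. At 6h and 12h against 0h, at 12h against 6h and at 24h against 12h, most calls did not hold in every such fit. At 12h against 0h, 0 were lower without 0h replicate 2, 2 without 12h replicate 1 and 3 without 12h replicate 2.

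Signs turned under the GC and length corrections. With library levels kept, the 12h values were Mcm4 0.0946, Pold1 -0.1746, Rfc4 0.163, Chaf1a -0.1144 and Tipin 0.0799, and the 24h values Gins1 0.1726, Pold1 -0.1845, Pcna 0.0376, Dut 0.1303, Timeless -0.01 and Tipin 0.0342. Those called in the turned direction at 12h were Mcm4, Pold1, Rfc4 and Chaf1a (adjusted p = 0.023, 0.00026, 0.04 and 0.018). At 24h they were Gins1, Pold1 and Dut (adjusted p = 0.043, 9.3e-05 and 0.0036). With the mean gene centred, Pold1 was -0.1125 at 6h. The 12h values were Pold1 -0.2103, Chaf1a -0.1502, Timeless -0.0221 and Tipin 0.0441. The 24h values were Pole -0.0259, Pold1 -0.2248, Dut 0.0901 and Timeless -0.0503. Pold1 was called lower at 6h, 12h and 24h (adjusted p = 0.029, 1.7e-05 and 4e-06). Chaf1a was called lower at 12h (adjusted p = 0.002) and Dut higher at 24h (adjusted p = 0.041).

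Same-numbered libraries did not deviate together (correlations -0.09 to 0.12 over 10794 genes). With the replicate number as a block, there were 7 higher and 2 lower calls at 6h (1343 and 1152 of all genes). At 12h there were 13 higher and 7 lower (3102 and 3014), and at 24h 7 higher and 23 lower (3682 and 3478). There were 7 higher and 0 lower at 12h against 6h (1491 and 1321). At 24h against 12h there were 0 higher and 15 lower (450 and 386). With 2 libraries a group and small folds, counts near the threshold are uncertain.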
